A study of Mus musculus with 4 samples.

Results

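The genes described here encode the subunits of oxidative phosphorylation. They were found by name: symbols of the nuclear Nduf, Sdh, Uqcr, Cox and Atp5 families that name complex I to V subunits, and the protein-coding genes of the mitochondrial genome. The names matched 100 of 28545 genes. Of these, 87 lie in the nuclear genome (36 named for complex I, 4 for II, 9 for III, 18 for IV and 20 for V) and 13 in the mitochondrial genome (7 for complex I, 1 for III, 3 for IV and 2 for V). A pseudogene suffix is carried by 6 of the 87 nuclear names, and reads of those genes and their parents can be split by counting.

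Complexes I to IV form the respiratory chain of the inner mitochondrial membrane. Electrons from NADH enter at complex I and those from succinate at complex II. They pass through complex III and cytochrome c to oxygen at complex IV, while protons are pumped outward, and complex V, the ATP synthase, lets the protons return and makes ATP. Complexes I, III, IV and V are mosaics of subunits encoded in both genomes, which are transcribed by different polymerases, and complex II is wholly nuclear. In the uterus this machinery supplies energy to muscle, stroma and a glandular lining that grows and regresses with each cycle.

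Polyadenylated RNA from mouse uterus was sequenced in 4 libraries, all from mice at proestrus, the stage before ovulation. The sample labels name the endometrium, the inner layer of the uterus, and the design text names uterine tissue. Libraries labelled Cre (2) carry a treatment label of CKO and come from mice with Smad7 flanked by loxP sites and 1 copy of a Cre transgene; libraries labelled floxed (2) come from mice with the flanked gene alone and are labelled blank. The loxP sites, shared by all 4, were placed with Cas9 in fertilized eggs. The Cre line, its promoter, the deleted part of Smad7 and the animals' age are not stated in the labels or the design text. Whether each library is a different animal is not said in the labels; the p-values then describe how far these libraries spread, part of which may be technical.

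Total counts were 19830568 and 17444368 in the libraries labelled Cre, against 22950532 and 18193504 in those labelled floxed. The libraries labelled Cre were nearer each other (Spearman correlation over genes 0.985) than those labelled floxed (0.908), and pairs across the labels lay between 0.912 and 0.920. Smad7, an inhibitor of TGF-beta family signalling, checks the labels and went against them. It had 49.9 and 33.9 FPKM (a count scaled by exon length and sequencing depth) in the libraries labelled Cre, against 7.79 and 7.81 FPKM in those labelled floxed. The edgeR quasi-likelihood test gave a log2 fold change of 2.42 ± 0.28 (SE; adjusted p 0.0981 by Benjamini-Hochberg), and reads over the deleted exons were not analysed here. Every direction below is therefore one between libraries as labelled. Markers of the labelled tissue were present, and so were those of smooth muscle. The 10 smooth muscle markers summed to 2944 and 2637 FPKM in the Cre libraries, against 1857 and 1576 FPKM in the floxed libraries. How much muscle the libraries hold beside endometrium was not tested. Krt8, an epithelial keratin, stood at 257 and 198 FPKM in the Cre libraries, against 177 and 244 FPKM in the floxed libraries. Stromal Hoxa10 stood at 57.4 and 52.9 FPKM in the Cre libraries, against 101 and 56.0 FPKM in the floxed libraries.

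Across both genomes, oxidative phosphorylation genes had slightly lower values in the libraries labelled Cre, and no single gene passed the test. A mean of at least 1 FPKM over the 4 libraries was reached by 94 genes, 82 nuclear and 12 mitochondrial, and these were tested with all 13513 genes at that level. The 6 below it were mt-Atp8, the muscle isoforms Cox6a2 and Cox7a1, and the pseudogenes Uqcrh-ps2, Atp5l-ps1 and Atp5pb-ps. The log2 fold change was below 0 for 86 of the 94, against 7165 of the 13513 genes. Its median was -0.29 over the nuclear genes and -0.17 over the mitochondrial genes, against -0.03 over all genes. Some tested nuclear genes carry a pseudogene suffix. Without them, 73 of 79 nuclear genes were below 0, with a median of -0.29. At an adjusted p under 0.05 in edgeR, 0 of 94 passed, as did 0 of 13513 genes (0.0%), and the lowest adjusted p among the 94 was 0.324. DESeq2 also called 0 of them, while it called 843 of all 13513 (6.24%). Unadjusted edgeR p-values were under 0.05 for 2 of 94, both lower in the Cre libraries, where 6.59% of all genes were lower at that level and 13.9% differed in either direction. In scaled counts the groups did not overlap for 37 of the 94 genes (39.4%), against 48.3% of all genes. Of these 37, Cre was lower for 35 (37.2% of the 94, against 23.6% of all genes) and higher for 2 (2.13%, against 24.7%). In bulk tissue, fewer cells of a type and less RNA per cell cannot be told apart.

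Both the size and the direction of these differences rested largely on 1 library, floxed replicate 2. It held the highest scaled count of the 4 libraries for 72 of the 94 genes, and for 4349 of the 13513 genes. Among nuclear members, 72 of 82 (87.8%) were higher in floxed replicate 2 than in floxed replicate 1, against 47.8% of all genes. The median of that log2 ratio was 0.36 for nuclear and 0.48 for mitochondrial members, against -0.03 for all genes. Without floxed replicate 2, the median log2 fold change between the labels was -0.06 for the nuclear and 0.06 for the mitochondrial members. Fold changes were then below 0 for 57 of the 94 genes (53 of 82 nuclear and 4 of 12 mitochondrial), against 6724 of the 13513. One gene of the 94 was then called (1.06%), Ndufc2, while 11.4% of all genes were called lower and 10.4% higher. Without floxed replicate 1, the medians were -0.46 and -0.41, and 30 of the 94 members (31.9%) were called lower in edgeR, against 13.2% of all genes called lower and 17.1% called higher. Medians of the single nuclear complexes lay between -0.09 (complex V) and -0.01 (complex IV) without floxed replicate 2, and between -0.56 (complex V) and -0.30 (complex II) without floxed replicate 1. That of complex I was -0.12 without Cre replicate 2. In each of these fits the lone library of a label is assumed to vary like the other pair.

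**Figure D1:**
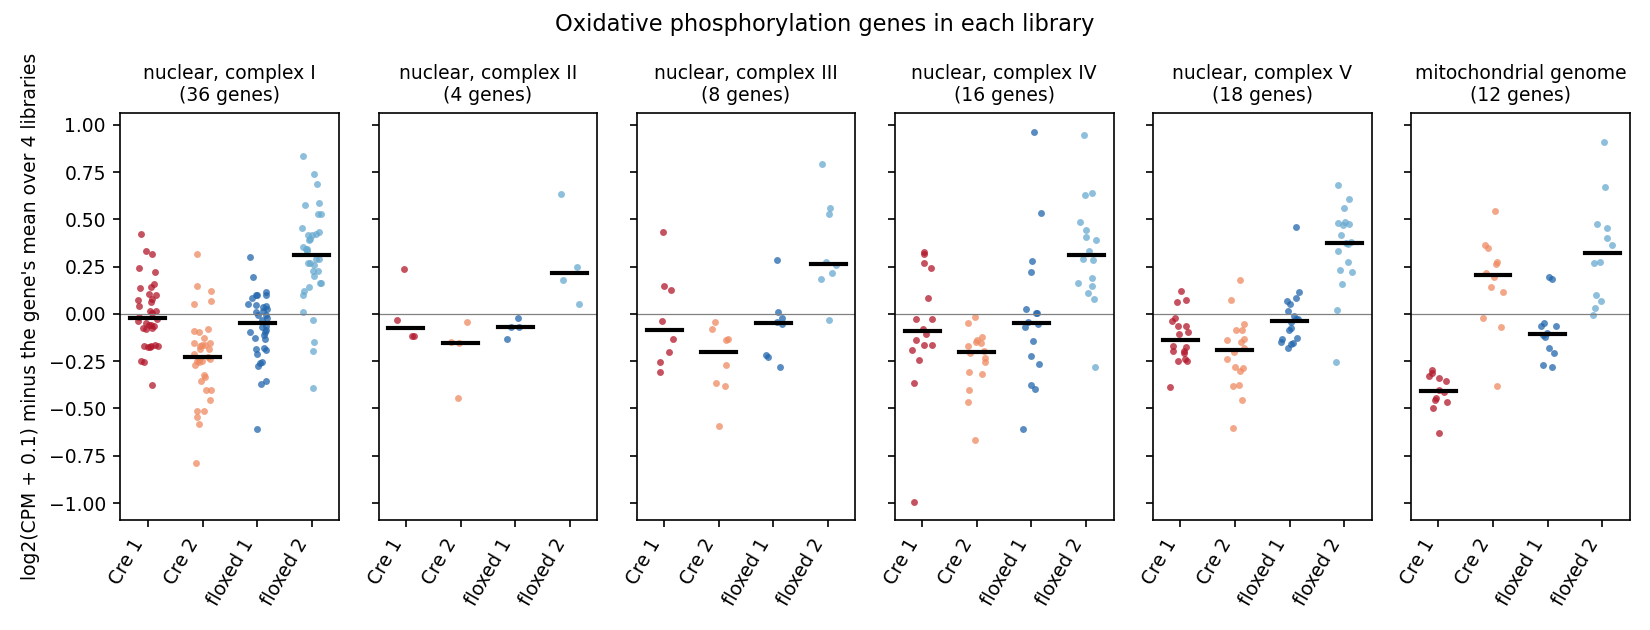
Scaled count of each oxidative phosphorylation gene in each library, as log2(CPM + 0.1) minus the gene's mean over the 4 libraries, with 1 panel for each nuclear complex and 1 for the mitochondrial genome; each point is a gene and the black bar is the median of the panel's genes. Nuclear medians stand highest in floxed replicate 2, and the mitochondrial genes stand lowest in Cre replicate 1.

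Gene length, taken here as all annotated exon bases of a gene merged, moved with the same libraries. The longest annotated transcript can be shorter, as for Ndufs4, at 1698 bases against 2708. The nuclear members without a pseudogene suffix had a median exon length of 1587 bases, against 4187 bases over all genes tested. Over all genes, those under 1000 bases had a median log2 fold change of -0.37 (Cre over floxed, n = 899), those of 1000 to 2500 bases -0.24 (n = 2466) and longer ones 0.03 (n = 10148). The nuclear members in these classes had medians of -0.29 (n = 19), -0.32 (n = 38) and -0.25 (n = 22). By merged exon length, short members had values like those of other short genes. The 22 members of the longest class had a lower median than all genes of that class, though their transcripts can be shorter. Between the floxed libraries, genes under 1000 bases had a median log2 ratio of 0.43 (replicate 2 over replicate 1). Those of 1000 to 2500 bases had 0.27 and longer ones -0.11. The nuclear members in these classes had 0.26, 0.51 and 0.28. The part of length in the members' values was not tested.

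Complex I, the NADH dehydrogenase, had lower values in the Cre libraries for 33 of its 36 nuclear genes, with a median log2 fold change of -0.25. The summed level was 1388 and 1182 FPKM in the Cre libraries, against 1385 and 1735 FPKM in the floxed libraries, so both Cre libraries were close to floxed replicate 1 or below it. The 7 core subunits, which carry the flavin and iron-sulfur clusters, had a median of -0.18 and the 29 accessory subunits -0.26. In scaled counts the groups did not overlap, with Cre lower, for 12 of the 36 (33.3%, against 23.6% of all genes), and with Cre higher for 2 (5.56%, against 24.7%).

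Ndufs4 encodes an accessory subunit added late to the complex, and its loss is the basis of a mouse model of Leigh syndrome. It had 12.5 and 13.6 FPKM in the Cre libraries, against 17.96 and 22.57 FPKM in the floxed libraries. The groups did not overlap, and the log2 fold change of -0.64 ± 0.23 (SE) had a p of 0.0372 unadjusted and 0.324 adjusted in edgeR. The gene lies on chromosome 13 at 114287795 to 114388258 (GRCm38, minus strand).

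Ndufc2 encodes an accessory subunit of the membrane arm. It had 85.2 and 75.5 FPKM in the Cre libraries, against 122.4 and 109.0 FPKM in the floxed libraries. Here floxed replicate 1 was the highest, unlike most members. The log2 fold change was -0.53 ± 0.20 (SE; edgeR adjusted p 0.344), and it was -0.49 without floxed replicate 1 and -0.57 without floxed replicate 2, where it passed (adjusted p 0.0426). Ndufs8, a core iron-sulfur subunit, had 39.4 and 41.9 FPKM in the Cre libraries, against 55.5 and 53.1 FPKM in the floxed libraries. Its log2 fold change of -0.42 ± 0.19 (SE; edgeR adjusted p 0.405) kept its size whichever floxed library was left out, at -0.44 and -0.41.

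Fold changes above 0 were seen for 3 of the 36 genes: Ndufa11, Ndufb2 and the core gene Ndufs1. Ndufa11, an accessory subunit of the membrane arm, had 33.66 and 30.97 FPKM in the Cre libraries, against 25.3 and 24.8 FPKM in the floxed libraries (log2 0.37 ± 0.21 SE, edgeR adjusted p 0.485). Ndufb2 had 1.49 and 1.39 FPKM in the Cre libraries, against 0.890 and 0.811 FPKM in the floxed libraries, and reached the level for testing through the Cre libraries alone. The highest mean over the 4 libraries among nuclear genes named for complex I belonged to Ndufa4, whose protein has since been assigned to complex IV, with Ndufa2 close to it and above it in 3 of 4 libraries. It had 109 and 92.8 FPKM in the Cre libraries, against 98.9 and 141 FPKM in the floxed libraries, and the groups overlapped.

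Complex II, succinate dehydrogenase, had fold changes below 0 for 3 of its 4 genes. Sdhd, a membrane anchor subunit, had 87.4 and 70.0 FPKM in the Cre libraries, against 93.6 and 143 FPKM in the floxed libraries. Its log2 fold change was -0.60 ± 0.31 (SE; edgeR adjusted p 0.462), but -0.91 without floxed replicate 1 and -0.21 without floxed replicate 2. The other anchor, Sdhc, had 33.8 and 31.2 FPKM in the Cre libraries, against 34.0 and 39.6 FPKM in the floxed libraries, and the iron-sulfur subunit Sdhb had 43.7 and 46.3 FPKM in the Cre libraries, against 48.5 and 52.1 FPKM in the floxed libraries. Sdha, the flavoprotein that oxidises succinate, had 70.0 and 53.7 FPKM in the Cre libraries, against 56.1 and 59.6 FPKM in the floxed libraries, with a log2 fold change of 0.09. Floxed replicate 2 was the highest library for 3 of the 4 genes and Cre replicate 1 for Sdha.

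Complex III, the cytochrome bc1 complex, had fold changes below 0 for all 8 tested nuclear genes (5 of 8 without floxed replicate 2), with a median of -0.26. The groups did not overlap, with Cre lower, for 2 of the 8 (25.0%, against 23.6% of all genes). Its summed level was 599.6 and 543 FPKM in the Cre libraries, against 607 and 823 FPKM in the floxed libraries. Uqcrh, the acidic hinge subunit beside cytochrome c1, had 110 and 114 FPKM in the Cre libraries, against 121 and 228 FPKM in the floxed libraries. Floxed replicate 2 stood far above the other libraries, and the log2 fold change of -0.66 ± 0.38 (SE; edgeR adjusted p 0.490) was -1.08 without floxed replicate 1 and -0.08 without floxed replicate 2. Uqcrfs1, the Rieske iron-sulfur protein, had 85.5 and 96.7 FPKM in the Cre libraries, against 90.1 and 146 FPKM in the floxed libraries. Its groups overlapped, and its log2 fold change was -0.73 without floxed replicate 1 and 0.05 without floxed replicate 2. Uqcrc1, a core protein, had 43.5 and 43.6 FPKM in the Cre libraries, against 49.7 and 55.1 FPKM in the floxed libraries, a log2 fold change of -0.27.

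Complex IV, cytochrome c oxidase, had fold changes below 0 for 15 of 16 tested nuclear genes, pseudogene names included, with a median of -0.31. The groups did not overlap, with Cre lower, for 7 of the 16 (43.8%, against 23.6% of all genes). Without floxed replicate 2, fold changes were below 0 for 8 of the 16. Cox6c had 60.3 and 62.4 FPKM in the Cre libraries, against 89.6 and 77.2 FPKM in the floxed libraries (log2 -0.44 ± 0.23 SE, edgeR adjusted p 0.457). Cox5a, a subunit on the matrix side, had 17.5 and 17.1 FPKM in the Cre libraries, against 23.62 and 21.01 FPKM in the floxed libraries (log2 -0.37 ± 0.19 SE, edgeR adjusted p 0.455). In both genes floxed replicate 1 was the highest library.

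Several complex IV subunits exist as isoforms encoded by separate genes, and the common forms dominated in every library. Cox6a1 had 280.2 and 239 FPKM in the Cre libraries, against 266 and 276 FPKM in the floxed libraries, and its muscle isoform Cox6a2 had 0.371 and 0 FPKM in the Cre libraries, against 0.192 and 1.05 FPKM in the floxed libraries. Cox7a2 had 87.8 and 87.3 FPKM in the Cre libraries, against 100.1 and 114 FPKM in the floxed libraries, and the muscle form Cox7a1 had 1.70 and 0.214 FPKM in the Cre libraries, against 0.896 and 1.03 FPKM in the floxed libraries. Cox8a, the common form, had 279 and 172 FPKM in the Cre libraries, against 209.6 and 311 FPKM in the floxed libraries. Its muscle counterpart Cox8b had 1.40 and 2.71 FPKM in the Cre libraries, against 4.72 and 4.73 FPKM in the floxed libraries. That was the lowest fold change of the 94 genes, a log2 of -1.21 ± 0.57 (SE; edgeR adjusted p 0.425) from 10 and 17 counts in the Cre libraries, against 39 and 31 counts in the floxed libraries. The 7 genes of the skeletal and cardiac muscle list summed to 27.3 and 31.9 FPKM in the Cre libraries, against 113 and 24.9 FPKM in the floxed libraries, most of it Acta1, with 23.3 and 29.0 FPKM in the Cre libraries, against 109.7 and 22.3 FPKM in the floxed libraries. Myoglobin (Mb) and muscle creatine kinase (Ckm) reached at most 0.154 and 0.0598 FPKM in any library. The part of such cells in the Cox8b value was not tested.

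Cox4i1 had 167 and 161 FPKM in the Cre libraries, against 152 and 239 FPKM in the floxed libraries. Its paralogue Cox4i2, known from lung and from hypoxic cells, had 2.30 and 2.40 FPKM in the Cre libraries, against 6.19 and 2.37 FPKM in the floxed libraries, so only floxed replicate 1 stood apart. Summed pericyte markers were also highest there, at 108 and 113 FPKM in the Cre libraries, against 183 and 101 FPKM in the floxed libraries; 5 of those 7 markers were highest in floxed replicate 1, and their part in the Cox4i2 value was not tested. Cox6b1 had 145 and 119.7 FPKM in the Cre libraries, against 153 and 179 FPKM in the floxed libraries. Its testis isoform Cox6b2 had 7.92 and 6.31 FPKM in the Cre libraries, against 5.03 and 6.50 FPKM in the floxed libraries, and was the complex IV gene with a fold change above 0 (log2 0.30). Cox7b had 68.8 and 64.7 FPKM in the Cre libraries, against 65.7 and 82.9 FPKM in the floxed libraries. The floxed libraries were far apart for Cox7a2l, a relative that takes part in respiratory supercomplexes, with 186 and 171 FPKM in the Cre libraries, against 135 and 373 FPKM in the floxed libraries. Its log2 fold change was -0.54 ± 0.53 (SE; edgeR adjusted p 0.676), -1.12 without floxed replicate 1 and 0.43 without floxed replicate 2.

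**Figure D2:**
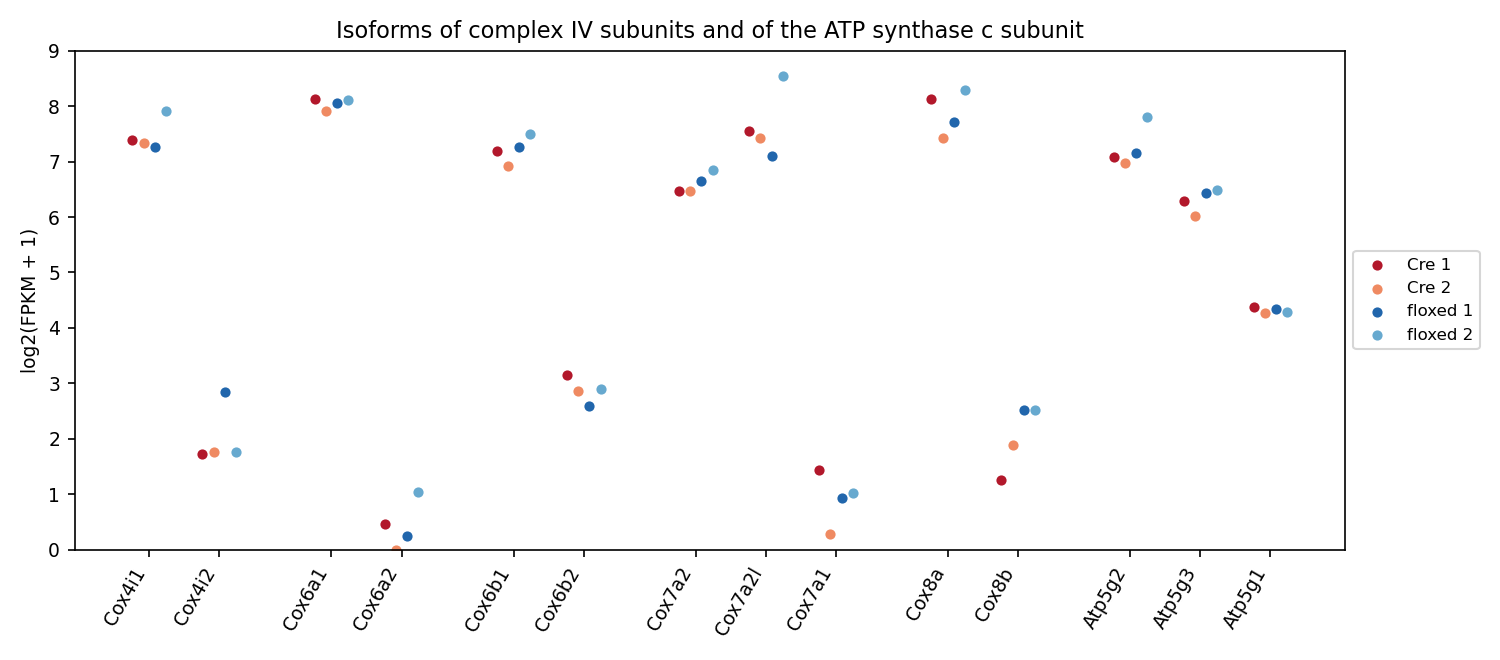
Deposited level, as log2(FPKM + 1), of the complex IV subunit isoforms and of the genes for the ATP synthase c subunit in each library (points, Cre libraries to the left). Common isoforms lie far above their tissue-restricted partners in every library, and Cox7a2l stands at 135 and 373 FPKM in the floxed libraries.

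Complex V, the ATP synthase, had fold changes below 0 for 17 of 18 tested nuclear genes, pseudogene names included, with a median of -0.33. The groups did not overlap, with Cre lower, for 10 of the 18 (55.6%, against 23.6% of all genes). Its summed level was 1240 and 1151 FPKM in the Cre libraries, against 1301 and 1673 FPKM in the floxed libraries. By position in the enzyme, medians were -0.26 for the 5 subunits of the catalytic head and its central stalk. They were -0.41 for 4 of the peripheral stalk that holds the head still and -0.31 for the 3 genes of the rotating c ring. That of 5 accessory membrane subunits was -0.34. Atp5a1, the alpha subunit and the highest of these genes, had 239 and 231 FPKM in the Cre libraries, against 249 and 311 FPKM in the floxed libraries (log2 -0.26).

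Atp5k, the e subunit that helps synthase dimers form, had 40.4 and 35.2 FPKM in the Cre libraries, against 46.6 and 64.9 FPKM in the floxed libraries. Its log2 fold change was -0.57 ± 0.28 (SE; edgeR adjusted p 0.437). Atp5pb, the b subunit of the stalk, had 45.3 and 44.2 FPKM in the Cre libraries, against 56.4 and 65.0 FPKM in the floxed libraries, a log2 fold change of -0.45 ± 0.24 (SE; edgeR adjusted p 0.470). For both, the groups did not overlap and floxed replicate 2 was the highest. Atp5o, the stalk subunit that confers oligomycin sensitivity, had 2.89 and 2.18 FPKM in the Cre libraries, against 3.73 and 5.18 FPKM in the floxed libraries; 47.9% of its exon bases overlap another gene, so its counts are uncertain.

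The c ring is built from 1 mature protein encoded by 3 genes. Atp5g1 had 19.9 and 18.4 FPKM in the Cre libraries, against 19.3 and 18.6 FPKM in the floxed libraries, a log2 fold change of 0.01 ± 0.20 (SE). Atp5g2 had 134 and 125 FPKM in the Cre libraries, against 141 and 223 FPKM in the floxed libraries (log2 -0.50 ± 0.33 SE). Atp5g3 had 76.8 and 63.5 FPKM in the Cre libraries, against 85.4 and 88.6 FPKM in the floxed libraries (log2 -0.31 ± 0.23 SE). None of these 3 passed the test (edgeR adjusted p 0.541 or higher), and differences between the genes were not tested.

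**Figure D3:**
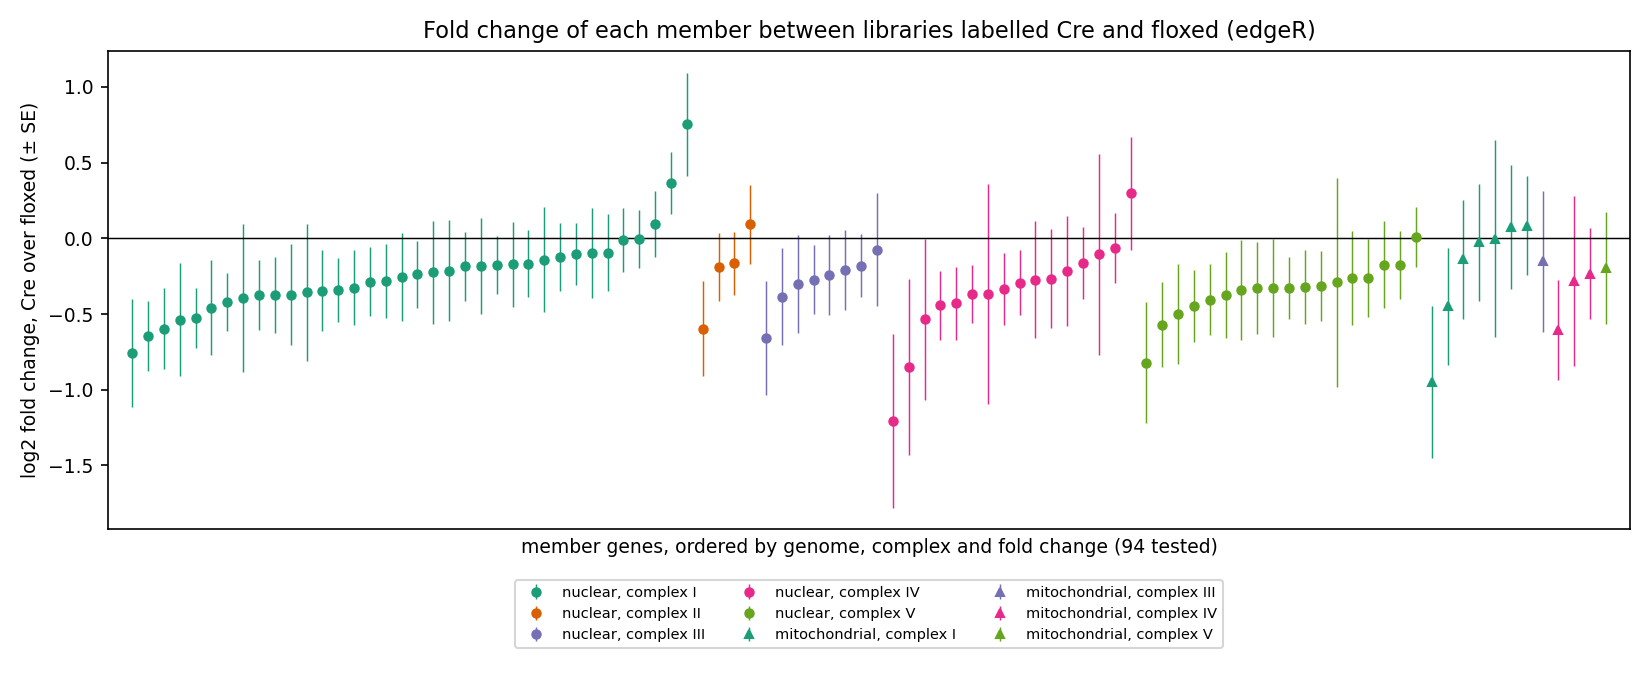
Log2 fold change between libraries labelled Cre and floxed (edgeR, bars are ± SE) of the 94 tested genes, ordered by genome, complex and fold change. Values lie below 0 for 86 of the 94, many bars reach or cross 0, and none passed an adjusted p of 0.05.

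The mitochondrial genome gave a different order of the libraries. Its 13 genes took 2.12% and 3.15% of all counts in the Cre libraries, against 2.69% and 3.36% in the floxed libraries. Counts on copies of these genes in the nuclear genome, described below, are not included. The exact 95% binomial intervals, which cover counting error only, ran from 2.11% to 2.13% and from 3.14% to 3.16% in the Cre libraries, against 2.68% to 2.70% and 3.35% to 3.37% in the floxed libraries, and did not overlap. The means were 2.64% ± 0.730 in Cre and 3.03% ± 0.474 in floxed (SD, n = 2 each), a difference smaller than the SD of either group, and 2 against 2 libraries cannot give an exact permutation p below 0.3333. All 12 detected genes were lowest in Cre replicate 1, and all 12 were higher in Cre replicate 2 than in Cre replicate 1, by a median log2 ratio of 0.57. Of the nuclear members, 22 of 82 were higher in Cre replicate 2 than in Cre replicate 1, with a median log2 ratio of -0.12. The median log2 fold change of the mitochondrial genes was 0.09 without Cre replicate 1 and -0.54 without Cre replicate 2. Mitochondrial counts were 2.56 and 4.17 times the nuclear members' counts in the Cre libraries, against 3.18 and 3.11 times in the floxed libraries.

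Complex I genes of the mitochondrial genome had a median log2 fold change of -0.03. mt-Nd1 had 2178 and 2934 FPKM in the Cre libraries, against 3513 and 3449 FPKM in the floxed libraries, and its groups did not overlap (log2 -0.45 ± 0.39 SE, edgeR adjusted p 0.632). mt-Nd2 had 1029 and 1714 FPKM in the Cre libraries, against 1657 and 1360.2 FPKM in the floxed libraries. mt-Nd4 had 1244 and 1862 FPKM in the Cre libraries, against 1550.0 and 1602 FPKM in the floxed libraries. In both of these the Cre libraries lay on either side of the floxed pair. mt-Nd5 had 1032 and 1678 FPKM in the Cre libraries, against 1286 and 1281 FPKM in the floxed libraries (log2 0.07). mt-Nd6, the gene among them transcribed from the light strand, had 707 and 1112 FPKM in the Cre libraries, against 828 and 884 FPKM in the floxed libraries (log2 0.08); the labels do not state whether strand was used in counting, so its reads cannot be told from antisense RNA.

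mt-Cytb, the cytochrome b gene of complex III, had 3875 and 5694 FPKM in the Cre libraries, against 4754 and 5811 FPKM in the floxed libraries (log2 -0.15 ± 0.47 SE). mt-Co1, the catalytic subunit of complex IV and the most abundant of all members, had 6147 and 9069 FPKM in the Cre libraries, against 7318 and 11003 FPKM in the floxed libraries (log2 -0.28 ± 0.56 SE, edgeR adjusted p 0.841). Replicate 2 of each label was the higher in both genes. mt-Co1 alone made up 44.8% and 44.5% of mitochondrial counts in the Cre libraries, against 42.0% and 50.6% in the floxed libraries. Those totals also leave out counts on the nuclear copies.

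The other mitochondrial genes were listed far lower, although the heavy strand is transcribed as 1 precursor. mt-Co2 had 131 and 180.4 FPKM in the Cre libraries, against 151 and 212 FPKM in the floxed libraries, and mt-Co3 had 40.6 and 54.7 FPKM in the Cre libraries, against 55.1 and 88.2 FPKM in the floxed libraries. mt-Atp6 had 24.4 and 37.7 FPKM in the Cre libraries, against 27.6 and 42.9 FPKM in the floxed libraries. mt-Nd3 had 6.81 and 7.25 FPKM in the Cre libraries, against 9.39 and 17.5 FPKM in the floxed libraries, and mt-Nd4l had 2.72 and 6.56 FPKM in the Cre libraries, against 3.67 and 5.55 FPKM in the floxed libraries. mt-Atp8 had 0 counts in every library.

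These low levels went with sequence shared between the genomes. Chromosome 1 holds a stretch of nuclear pseudogenes copied from mitochondrial DNA, and a read that matches both places equally does not show its source. How such reads were counted is not stated, and their part in these low levels was not tested. For mt-Co2, mt-Co3, mt-Atp6, mt-Nd3 and mt-Nd4l, between 97.6% and 99.9% of the 100-base windows of the annotated transcript were found unchanged in another gene, while for mt-Nd1, mt-Nd5, mt-Nd6 and mt-Cytb it was 0%. In shared windows mt-Nd4 stood between, at 60.8%, and so did mt-Co1 at 30.8% and mt-Nd2 at 3.19%. Their levels did not stand between. mt-Co1 was the highest of all members, and mt-Nd4 lay above the unshared mt-Nd6 in every library. mt-Atp8 shared 0% with annotated transcripts of other genes. Sequence outside annotated transcripts was not searched, so its 0 counts cannot be placed in that order. A pair with no difference and a pair with 1 show how near the copies are (GENCODE M21 transcripts, 5′ to 3′, on GRCm38). The first 60 bases of mt-Co2 (mitochondrial genome, 7013 to 7696) and of its copy Gm28661 (chromosome 1, 24614885 to 24615565, minus strand) are the same:
mt-Co2: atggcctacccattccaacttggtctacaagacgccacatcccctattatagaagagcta
Gm28661: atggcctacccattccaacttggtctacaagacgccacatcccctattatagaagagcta
All 681 aligned bases of that pair were identical. mt-Nd3 (mitochondrial genome, 9459 to 9806) and Gm28438 (chromosome 1, 24612775 to 24613119, minus strand) differ by 1 of 345 aligned bases, T3C, counted from 1 at the 5′ end of the gene and shown in capitals in the first 33 bases:
mt-Nd3: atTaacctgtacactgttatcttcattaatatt
Gm28438: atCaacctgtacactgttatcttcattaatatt

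The copies drew counts of their own. Gm28661 had 1123 and 1346 counts in the Cre libraries, against 1314 and 1865 counts in the floxed libraries, beside 1777 and 2152 counts for mt-Co2 in the Cre libraries, against 2374 and 2635 counts in the floxed libraries. Gm28437, the copy of mt-Co3, had 389 and 343 counts in the Cre libraries, against 381 and 7925 counts in the floxed libraries, while mt-Co3 had 631 and 748 counts in the Cre libraries, against 992 and 1258 counts in the floxed libraries. Gm10925, the copy of mt-Atp6, had 480.0 and 1994 counts in the Cre libraries, against 700.0 and 795 counts in the floxed libraries, while mt-Atp6 had 330.0 and 448 counts in the Cre libraries, against 432 and 531 counts in the floxed libraries. With the copies' counts added, the log2 fold change of mt-Co3 was -2.35 ± 0.98 (SE), against -0.60 ± 0.33 alone, and that of mt-Atp6 was 0.55 ± 0.60, against -0.20 ± 0.37 alone. Neither passed the test (edgeR adjusted p 0.380 and 0.703), and each added value rested on 1 library.

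**Figure D4:**
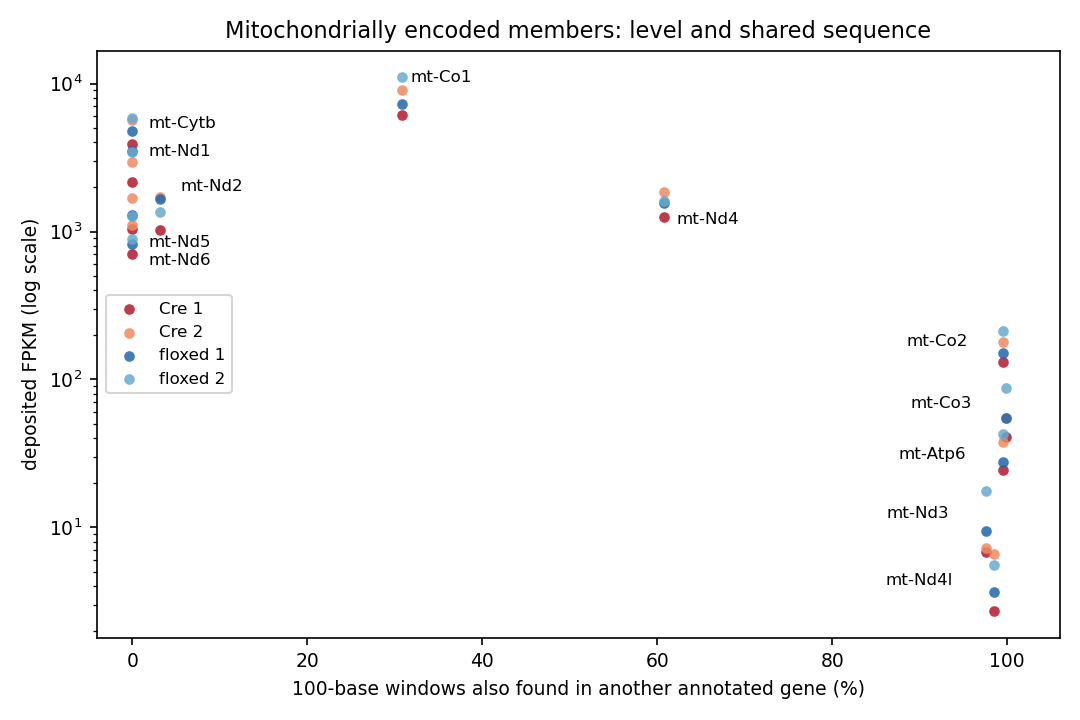
Deposited FPKM (log scale) of each detected mitochondrial gene in each library against the percent of its 100-base windows found in another annotated gene. Genes with no shared window lie between 707 and 5811 FPKM, and the 5 genes above 97% lie between 2.72 and 212 FPKM.

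Many nuclear members carry motifs bound by factors known to act on respiratory chain genes. RefSeq windows of 300 bases (250 before to 50 after the start, GRCm38.p6) were matched for 67 of the 87 nuclear members, 72 windows in all, and searched on both strands. The NRF1 motif (GCGCA and GCGC with any 1 base between them) was found in 25.0% of these windows, against 4.603% of all 32851 windows, and the GABPA motif CCGGAAG in 23.6%, against 8.86%. The YY1 motif AAGATGGC was found in 13.9%, against 2.75%, and the ERRalpha motif TCAAGGTCA in 2.78%, against 0.423%. No match overlapped one of another motif. Sdhd and Cox6a1 are shown because both hold the NRF1 and GABPA motifs (in capitals, GABPA on the other strand as CTTCCGG) while their log2 fold changes were -0.60 and -0.07. Windows of Atp5k and Atp5h also held both motifs, with log2 fold changes of -0.57 and -0.38. The Sdhd window also held the ERRalpha motif, outside the stretch shown, and the Cox6a1 window did not. Whether the motifs go with the fold changes was not tested. The Sdhd stretch is chr9:50603869-50603948 (minus strand, 99 to 20 bases before the start) and the Cox6a1 stretch is chr5:115348959-115349140 (minus strand, 182 to 1 bases before the start):
Sdhd: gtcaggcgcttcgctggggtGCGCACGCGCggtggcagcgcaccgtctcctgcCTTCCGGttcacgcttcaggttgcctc
Cox6a1: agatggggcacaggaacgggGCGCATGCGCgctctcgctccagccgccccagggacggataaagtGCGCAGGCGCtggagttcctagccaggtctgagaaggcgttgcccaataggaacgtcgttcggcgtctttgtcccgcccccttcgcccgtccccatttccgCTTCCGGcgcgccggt

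Genes that serve the complexes without matching the naming rule showed smaller medians. Assembly factors of complex I had a median log2 fold change of -0.14, with 11 of 17 below 0, and those of complexes II to V had -0.12, with 20 of 26 below 0; 0 of either list passed. Factors of mitochondrial transcription and RNA handling had a median of -0.12, with 23 of 30 below 0 and 0 passing. Among them Tfam, which packages mitochondrial DNA and starts its transcription, had 8.67 and 10.2 FPKM in the Cre libraries, against 12.1 and 12.0 FPKM in the floxed libraries (log2 -0.36 ± 0.20 SE, edgeR adjusted p 0.484). The single-strand binding protein Ssbp1 had a log2 fold change of -0.52 ± 0.30 (SE), -0.84 without floxed replicate 1 and -0.14 without floxed replicate 2.

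The coactivators that regulate nuclear respiratory genes differed in direction, and none passed. Ppargc1b had 1.82 and 1.58 FPKM in the Cre libraries, against 0.764 and 0.840 FPKM in the floxed libraries (log2 1.08 ± 0.38 SE, edgeR adjusted p 0.313), and it reached the level for testing through the Cre libraries alone. Ppargc1a had 1.00 and 1.45 FPKM in the Cre libraries, against 1.96 and 1.83 FPKM in the floxed libraries (log2 -0.63 ± 0.34 SE, edgeR adjusted p 0.467). Pprc1 had 11.6 and 10.7 FPKM in the Cre libraries, against 11.6 and 5.83 FPKM in the floxed libraries (log2 0.36 ± 0.34 SE, edgeR adjusted p 0.655). The 10 tested regulators had a median of 0.19, with 3 below 0 and 0 passing.

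Mitochondrial ribosomal proteins, nuclear-encoded and needed to translate the 13 mitochondrial genes, had the pattern nearest to that of the nuclear subunits. Of 77 genes, 74 had fold changes below 0, with a median of -0.30, and 63 were highest in floxed replicate 2. Without floxed replicate 2 the median was -0.15, with 63 of 77 below 0, against -0.06 and 53 of 82 for nuclear members. The groups did not overlap, with Cre lower, for 40 of the 77 (51.9%, against 40.2% of nuclear members and 23.6% of all genes). Mrpl13 had 3.66 and 3.58 FPKM in the Cre libraries, against 6.59 and 6.16 FPKM in the floxed libraries (log2 -0.82 ± 0.19 SE, edgeR adjusted p 0.194). Mrps18a had a log2 fold change of -0.64 ± 0.19 (SE; edgeR adjusted p 0.271), and without floxed replicate 1 or 2 it was -0.65 or -0.64. None of the 77 passed.

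Cell type markers moved between the libraries beside these genes. Summed smooth muscle markers were 2944 and 2637 FPKM in the Cre libraries, against 1857 and 1576 FPKM in the floxed libraries, with 10 of 10 fold changes above 0. Summed epithelial markers were 1955 and 1383 FPKM in the Cre libraries, against 889 and 1696 FPKM in the floxed libraries, and stromal markers 864 and 892 FPKM in the Cre libraries, against 659.7 and 1040.3 FPKM in the floxed libraries. Both sums were lower in floxed replicate 1 than in floxed replicate 2. Of the single genes, 5 of 8 epithelial and 2 of 8 stromal markers were higher in floxed replicate 2, and Dcn and Vim carried the stromal sum. Ltf was the largest part of the epithelial sum, at 1068 and 643 FPKM in the Cre libraries, against 203 and 603 FPKM in the floxed libraries. The order of the libraries in that sum therefore leans on 1 gene. Of the 8 epithelial markers, 3 were highest in Cre replicate 1 and 2 in floxed replicate 2. Summed proliferation markers were 49.6 and 57.3 FPKM in the Cre libraries, against 174 and 49.2 FPKM in the floxed libraries. The 8 markers of ciliated cells, oviduct and ovary summed to 82.9 and 303 FPKM in the Cre libraries, against 6.37 and 28.3 FPKM in the floxed libraries. In that sum, Ovgp1 had 56.0 and 243 FPKM in the Cre libraries, against 0.489 and 23.4 FPKM in the floxed libraries. Immune markers summed to 217 and 281 FPKM in the Cre libraries, against 503 and 362 FPKM in the floxed libraries. Lyz2 led that sum, with 187 and 248 FPKM in the Cre libraries, against 418 and 229 FPKM in the floxed libraries. Both sums therefore lean largely on 1 gene. The part of tissue makeup in the members' values was not tested.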

How the data were processed

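Per the file headers, the authors deposited a table for each library that pairs a raw count with an FPKM value for every gene. HISAT2, HTSeq 0.13.5 and the build GRCm38 are named in the submitters' processing notes; no source used here gives their settings. TRIzol RNA and a NEBNext Ultra kit were used, per the labels' protocols. In all 23463 genes with counts in 2 or more libraries, the deposited FPKM equalled the count over gene length and total count, with the same length within 1e-06. All 100 members were found in GENCODE M21, which gave positions, exon overlaps and transcripts. Library totals of 17444368 to 22950532 counts make 3 counts equal to 0.131 to 0.172 FPKM for 1 kb of exon.

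Counts were tested with edgeR 4.0.16 (quasi-likelihood, TMM scaling, 2 residual degrees of freedom, R 4.3.3) on genes with a mean of at least 1 FPKM; 15032 were set aside. Two-sided p-values were adjusted over all 13513 (Benjamini-Hochberg). Standard errors were taken as the fold change over the root of the F statistic. The members, the pathway and marker lists, the grouping by role, the length classes and the comparison with nuclear copies were chosen with earlier results of these data known. Named genes were Smad7, all mitochondrial members, isoform sets and members not tested. In each nuclear complex the 3 tested genes with the smallest p and the one with the highest level were also named. So were the 2 genes of each pathway list with the smallest p. Ndufa2, Ndufa11, Ndufb2, Ndufs1, Sdha, Atp5h, Pprc1, Krt8, Ltf, Hoxa10, Dcn, Vim, Ovgp1, Lyz2, Mb, Ckm, Acta1 and the copies were added after their values were seen. Alternatives were median-of-ratios and total count scaling, scaling without mitochondrial rows, no filter or a filter of 5 FPKM, DESeq2 1.42.0, limma 3.58.1 on log2(FPKM + 1) and log2(FPKM + 0.1), a block for the replicate number, leaving out each library and, chosen after seeing the data, the chromosome 1 copies added to the mitochondrial genes. Promoter windows are RefSeq's. The files hold 0 rows of mitochondrial rRNA or tRNA.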

Additional observations from a re-analysis of the deposited data

How the results depend on the processing

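Of the 94 members, 0 were called under every alternative except without floxed replicate 1 (30) and without floxed replicate 2 (1), so the range over libraries left out was 0 to 30; what sets these libraries apart was not tested. At an unadjusted p under 0.05 the count of 2 became 1 with total count scaling (13.4% of all genes in the same fit), 7 with no filter (15.3%), 1 with a filter of 5 FPKM (12.6%), 1 with DESeq2 (15.8%), 0 with the replicate block (11.3%) and 0 to 46 with a library left out. The 46 (48.9% of members, 41.3% of all genes) came without floxed replicate 1, 6 (6.38%, 31.1%) without floxed replicate 2, and 0 without either Cre library (4.88% and 4.46%). Genome-wide calls went from 0 in edgeR to 843 with DESeq2, 1928 with no filter and 1 with a filter of 5 FPKM; the cause was not tested. With a library left out, median log2 fold changes ran from -0.46 to -0.060 for nuclear members, -0.46 to -0.065 for nuclear complex I, -0.39 to -0.049 for III, -0.46 to -0.012 for IV, -0.56 to -0.085 for V and -0.54 to 0.23 for mitochondrial complex I. The Smad7 value passed with no filter (2.37), with DESeq2 (2.43) and without either floxed library, and ran from 2.11 to 2.68 with a library left out. Titles share replicate numbers, and deviations of same-numbered libraries from their label's mean correlated at -0.08. With 2 libraries per label, the value for the crossed numbers (0.08) is fixed as its mirror. This check therefore cannot decide whether the numbers pair libraries. With the replicate block 0 members were called and the nuclear median was -0.27. Of 41 named members, 24 had the same sign in every setting and 17 had another sign in 1 or more. Depth limits mt-Nd3, mt-Nd4l, Cox8b and the muscle isoforms.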

Other observations

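Genes of neighbouring energy pathways had values of their own. Of 18 glycolysis genes, 16 had fold changes below 0 in the libraries labelled Cre, with a median log2 of -0.36; edgeR called 0 of them, 3 lay at an unadjusted p under 0.05 (16.7%, against 13.9% of all genes) and DESeq2 called 2 (11.1%, against 6.24%). Ldhb, a lactate dehydrogenase subunit, had 65.5 and 74.997 FPKM in the Cre libraries, against 305 and 174 FPKM in the floxed libraries (log2 -1.76 ± 0.33 SE, edgeR adjusted p 0.146). Hk2, a hexokinase that opens glycolysis, had 5.27 and 4.54 FPKM in the Cre libraries, against 9.34 and 14.5 FPKM in the floxed libraries (log2 -1.29 ± 0.31 SE, edgeR adjusted p 0.197). For Ldhb floxed replicate 1 was the highest and for Hk2 floxed replicate 2.

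The 20 genes of the TCA cycle and pyruvate dehydrogenase had a median log2 fold change of -0.06, with 12 below 0 and 0 called by edgeR. Idh2, the mitochondrial NADP-dependent isocitrate dehydrogenase, had 36.0 and 33.6 FPKM in the Cre libraries, against 56.0 and 44.9 FPKM in the floxed libraries (log2 -0.53 ± 0.21 SE, edgeR adjusted p 0.365). Mpc1, a subunit of the carrier that brings pyruvate into mitochondria, had 2.88 and 2.48 FPKM in the Cre libraries, against 0.984 and 1.21 FPKM in the floxed libraries (log2 1.28 ± 0.41 SE, edgeR adjusted p 0.290).

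Among subunits and partners outside the naming rule, Atpif1, which inhibits the ATP synthase when it runs in reverse, had 10.4 and 9.91 FPKM in the Cre libraries, against 11.2 and 19.9 FPKM in the floxed libraries. Cycs, cytochrome c, had 12.6 and 9.83 FPKM in the Cre libraries, against 18.30 and 11.04 FPKM in the floxed libraries. The 5 genes of this list had a median log2 fold change of -0.15. The copper chaperone Cox17, needed to build complex IV, had 1.62 and 1.51 FPKM in the Cre libraries, against 0.717 and 0.933 FPKM in the floxed libraries (log2 0.91 ± 0.37 SE, edgeR adjusted p 0.365), and reached the level for testing through the Cre libraries alone. Uqcc3, a complex III assembly factor, had a log2 fold change of -0.75 ± 0.41 (SE), and the complex I factors Ndufaf6 and Ndufaf8 had -0.56 ± 0.35 and -0.63 ± 0.41.

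The share of a pair's counts that fell on the nuclear copy stood apart in 2 places. For mt-Co3 and Gm28437 it was 38.1% and 31.4% in the Cre libraries, against 27.7% and 86.3% in the floxed libraries. For mt-Atp6 and Gm10925 it was 59.3% and 81.7% in the Cre libraries, against 61.84% and 59.95% in the floxed libraries. The corresponding share for mt-Co2 and Gm28661 ran from 35.6% to 41.4% over the 4 libraries.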
